A study of Mus musculus with 16 samples.

Results

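The let-7 family of mature miRNAs was examined in small RNA libraries from plasma extracellular vesicles (pEVs) of PS19 and wild-type (WT) mice. The family was taken by name as the mouse 5p entries mmu-let-7a-5p, mmu-let-7b-5p, mmu-let-7c-5p, mmu-let-7d-5p, mmu-let-7e-5p, mmu-let-7f-5p, mmu-let-7g-5p, mmu-let-7i-5p and their close relative mmu-miR-98-5p, which are 9 of the 817 mature miRNAs and of the 15159 ncRNAs listed. All 9 had reads in every library. PS19 mice were heterozygous for a transgene that expresses human tau (MAPT) with the P301S mutation under the murine prion promoter, on a mixed C57BL/6 and C3H background, and the WT mice were littermates without it. There were 8 mice per genotype, aged about 9.6 months with equal numbers of males and females, and each library came from 200 µL plasma of 1 mouse. The vesicles were collected by precipitation, a method that also carries over plasma proteins and lipoproteins, so that RNA outside vesicles could be present, and fewer vesicles with an RNA cannot be told apart from less RNA per vesicle.

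let-7 was among the earliest miRNAs found, as a gene that times development in worms, and in mammals the family is abundant in differentiated tissues. Its members bind target mRNAs through the same seed, the bases near the 5′ end that pair with the target, and repress among others the growth regulators Hmga2 and Lin28. The LIN28 proteins in turn block the maturation of let-7 precursors. Members leave cells in vesicles and on protein carriers, and let-7 is a regular part of plasma miRNA.

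The mature sequences from RefSeq (GRCm38.p6) show what the 9 members share and how little separates them, with the seed at bases 2 to 8 in capitals.
let-7a-5p: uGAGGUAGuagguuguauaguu
let-7b-5p: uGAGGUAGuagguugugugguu
let-7c-5p: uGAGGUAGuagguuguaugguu
let-7d-5p: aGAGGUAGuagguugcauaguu
let-7e-5p: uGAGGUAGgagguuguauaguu
let-7f-5p: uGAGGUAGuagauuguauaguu
let-7g-5p: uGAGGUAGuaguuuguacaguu
let-7i-5p: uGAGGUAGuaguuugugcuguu
miR-98-5p: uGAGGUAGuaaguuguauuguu

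All 9 are 22 bases long and carry the seed GAGGUAG, which 11 of the 1679 mature names in the RefSeq table share. The others are let-7k and miR-1961. Counted from 1 at the 5′ end and with the let-7a base first, let-7c differs from let-7a by A19G, let-7e by U9G and let-7f by G12A. let-7b differs by A17G and A19G, so that A17G alone separates it from let-7c. let-7d differs by U1A and U16C, let-7g by G12U and U18C, and miR-98 by G11A and A19U. let-7i stands farthest from let-7a, with G12U, A17G, U18C and A19U. Reads with a sequencing error, a trimmed end or an edited base could be assigned to a neighbouring member, and how the authors' counting divided such reads is not given in the sources used here.

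The members come from 12 hairpins on the GRCm38 assembly. On chromosome 15 let-7c-2 (chr15:85706603-85706697) and let-7b (chr15:85707319-85707403) lie on the plus strand with 621 bases between them, in an exon of the noncoding gene Lncppara. The second source of let-7c, let-7c-1 (chr16:77599657-77599750, plus strand), is in an intron of Mir99ahg. let-7a-1 (chr13:48538179-48538272), let-7f-1 (chr13:48537829-48537917) and let-7d (chr13:48536012-48536114) lie in exonic sequence of 6720427I07Rik on the minus strand. let-7a-2 (chr9:41536716-41536811, plus strand) is in an intron of 3110039I08Rik. let-7f-2 (chrX:151912346-151912428) and miR-98 (chrX:151913214-151913321) lie in an intron of Huwe1 on the plus strand, with 785 bases between them. let-7e (chr17:17830352-17830444, plus strand) is in an intron of Spaca6, let-7g (chr9:106178840-106178927, plus strand) in an intron of Wdr82, and let-7i (chr10:122985640-122985724, minus strand) in an exon of D630033A02Rik. For let-7a, let-7c and let-7f the mature sequence does not tell its 2 hairpins apart.

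Depth set the counting error of the values that follow, but not their spread between mice. Summed over all entries, the libraries held between 36220722 and 117583663 assigned reads, of which tRNAs took a median of 99.1%. Some entries had identical values, so a read may count under more than 1 entry. How far this raised the totals or moved the shares was not measured. Mature miRNAs took between 0.0631% and 7.40% of the reads (median 0.590%), so that between 51467 and 2681285 reads per library were mature miRNA. PS19 replicates 1 and 4 lay lowest in this share, and WT replicate 2 lay highest. The values are normalized counts, that is reads divided by a library's DESeq2 size factor, and 1 read was worth between 0.389 and 3.83 of them. The library names of all 8 PS19 mice begin with the letter G, against 2 of the WT mice, while 4 WT names begin with F and 2 with A. The labels do not say what the letter stands for, and it can be told apart from the genotype only in part.

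let-7 was a main component of the mature miRNA in these libraries. The 9 members together took a mean of 23.1% ± 7.45 (SD, n = 8) of the mature miRNA reads of the PS19 mice, against 25.0% ± 8.95 (SD, n = 8) for the WT mice. The lowest, median and highest libraries were at 12.3%, 22.8% and 36.7% for PS19 and at 11.1%, 25.8% and 35.5% for WT, so the genotypes overlapped over nearly their whole range. The difference of -1.84 percentage points was smaller than the spread between mice, and among the libraries of letter G it was 1.24 points in the other direction. It ran from -0.29 points without PS19 replicate 2 to -3.83 without WT replicate 2, and was -4.28 without the 3 libraries farthest out in their share of mature miRNA (PS19 replicates 1 and 4 and WT replicate 2). The rank of let-7c-5p among all mature miRNAs of a library lay between 1 and 6, and that of let-7b-5p between 3 and 7.

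Abundance differed widely within the family. All members are 22 bases long, so length does not enter the comparison of their normalized counts, whereas differences in ligation or amplification between sequences were not measured. In order of mean log2 level over the 16 libraries, let-7c-5p came first and let-7b-5p next, then let-7f-5p, let-7i-5p, let-7a-5p, let-7g-5p, let-7d-5p, let-7e-5p and miR-98-5p. let-7c-5p exceeded let-7b-5p in 15 of 16 libraries, by 0.80 ± 0.48 (SD) on the log2 scale, and WT replicate 2 was the library with the reverse order. let-7b-5p exceeded let-7f-5p by 1.26 ± 0.92, in 15 of 16 libraries. The neighbours let-7f-5p and let-7i-5p did not differ beyond their spread (0.25 ± 0.58), nor did let-7i-5p and let-7a-5p (0.03 ± 0.70). let-7d-5p, let-7e-5p and miR-98-5p were in the same descending order in all 16 libraries. In PS19, let-7b-5p also lay within the spread of let-7f-5p (0.81 ± 0.84), whereas in WT it stood above it (1.70 ± 0.80).

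Totals over the 16 libraries ran from 2840 reads for miR-98-5p to 1072243 for let-7c-5p. Even the least covered library had 5610 reads of let-7c-5p, against 21 of miR-98-5p in its own least covered library. Levels of the rare members therefore carry more counting error than those of let-7b and let-7c.

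The comparison of PS19 with WT addresses whether pEV ncRNA differs in tauopathy. In PS19 the 2 most abundant members, let-7b-5p and let-7c-5p, were lower by the unadjusted limma test, while the other 7 did not pass it. The limma log2 fold changes of all 9 were negative with the authors' size factors, but those of let-7f-5p, let-7g-5p and let-7i-5p turned positive with factors computed from mature miRNAs. The test was made on log2(normalized count + 1) over all 15159 ncRNAs, two-sided, with a raw p under 0.05 as the threshold, after the study. Of all ncRNAs 4.85% passed, 2.13% as lower, and of the mature miRNAs 5.51% were lower, beside the 2 of 9 here. DESeq2 on the recovered reads also gave 2 of 9, at 1.59% of all ncRNAs. A negative fold change was found for 50.8% of all ncRNAs and for 73.1% of the mature miRNAs, and the median log2 fold change was -0.71 over the members, -0.25 over the mature miRNAs and -0.01 over all ncRNAs. Among the 219 mature miRNAs with a mean of at least 10 normalized counts the median was -0.64, near that of the members. After Benjamini-Hochberg adjustment over all ncRNAs limma called 0 ncRNAs (735 at an unadjusted p under 0.05), while DESeq2 called 113 and edgeR 318, none of them members.

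**Figure D1:**
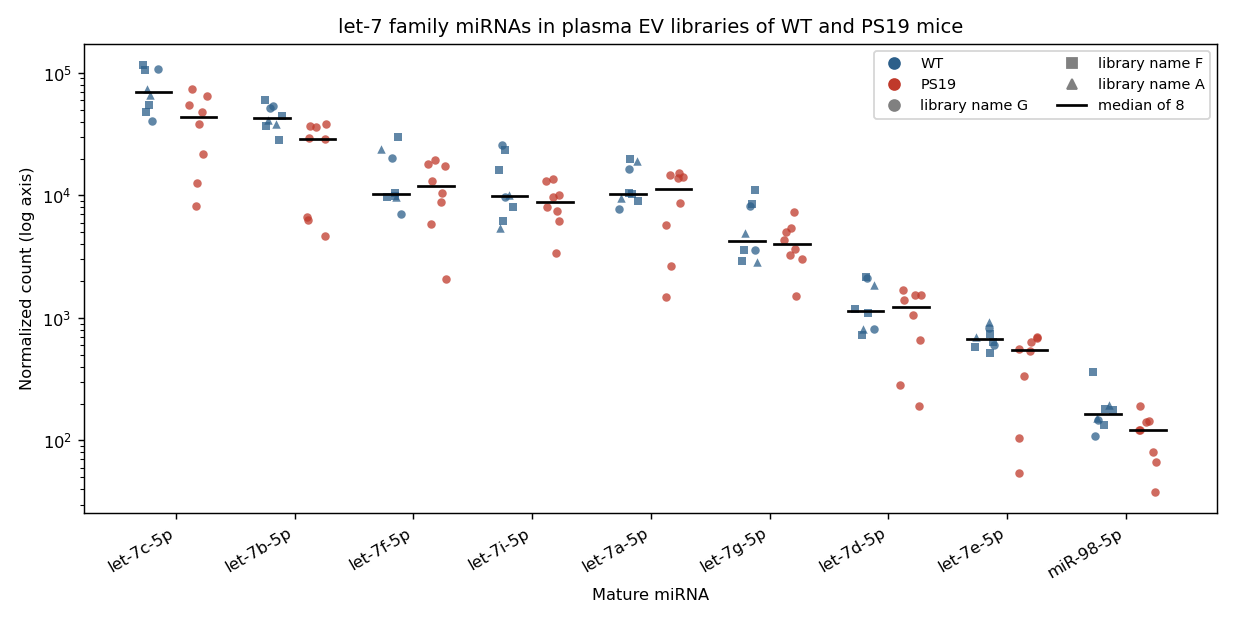
Normalized counts (log axis) of the 9 let-7 family miRNAs in the 8 WT (blue) and 8 PS19 (red) libraries, with the point shape giving the first letter of the library name and the black line the median. The genotypes overlap for all 9 members, and for let-7b-5p all 8 PS19 points lie below the WT median.

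The level of let-7b-5p, which comes from a single hairpin, spanned 28093 to 60494 normalized counts over the WT libraries (median 42565) and 4679 to 38092 over the PS19 libraries (median 29003). All 8 PS19 libraries lay below the WT median, and 6 WT libraries lay above the highest PS19 library. The mean was 44285 ± 10461 (SD, n = 8) for WT and 23361 ± 14867 (SD, n = 8) for PS19, a ratio of 0.528 of PS19 to WT. On the log2 scale limma put the difference at -1.31 with a standard error of 0.526 (raw p = 0.0194, adjusted p = 0.829), and the two-sided exact permutation test gave p = 0.00575.

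For let-7c-5p, the product of 2 hairpins of which one lies beside let-7b, the WT libraries spanned 40392 to 115257 normalized counts (median 69661) and the PS19 libraries 8244 to 73275 (median 43340). Of the PS19 libraries 7 lay below the WT median and 4 below the lowest WT library, and 4 WT libraries lay above the highest PS19 library. The mean was 76326 ± 29329 (SD, n = 8) for WT and 40131 ± 24132 (SD, n = 8) for PS19, a ratio of 0.526 of PS19 to WT. On the log2 scale limma put the difference at -1.16 with a standard error of 0.519 (raw p = 0.0339, adjusted p = 0.829), and the exact permutation test gave p = 0.0190.

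PS19 replicates 1, 3 and 4 were the 3 libraries with the lowest summed level of the family, and also those with the lowest share of mature miRNA among their reads. The part of that share in the differences was not tested. Without the 3 libraries that lay farthest out in it (PS19 replicates 1 and 4 and WT replicate 2, an alternative added after the data were seen) the log2 fold change was -0.72 for let-7b-5p (limma p = 0.115, exact permutation p = 0.0350) and -0.86 for let-7c-5p (limma p = 0.0663, exact permutation p = 0.0326), so that neither passed with limma, which called 2.43% of all ncRNAs lower. With factors from mature miRNAs, under which the median log2 fold change of all ncRNAs moved from -0.01 to 0.18 and 0.871% were called lower, it was -0.74 for let-7b-5p (limma p = 0.0785, exact permutation p = 0.0155) and -0.60 for let-7c-5p (limma p = 0.175, exact permutation p = 0.0793). With library totals limma passed both and the exact permutation test neither (p = 0.0875 and 0.0648). Under these totals limma called 296 of 15159 ncRNAs lower, and the exact permutation test 2.24%. With edgeR on the recovered reads, which called 7.26% of all ncRNAs lower, neither passed.

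With 1 library left out at a time, limma passed let-7b-5p in 14 of 16 fits and let-7c-5p in 11, and the exact permutation test passed both in all 16. The call of let-7b-5p was lost with limma without PS19 replicate 1 (log2 fold change -1.04, limma p = 0.0519, exact permutation p = 0.00777) or PS19 replicate 3 (-1.10, limma p = 0.0517, exact permutation p = 0.00730). That of let-7c-5p was lost without PS19 replicate 1 (-0.88), PS19 replicate 3 (-0.97), WT replicate 1 (-1.06), WT replicate 4 (-1.08) or WT replicate 7 (-1.08), with limma p up to 0.0888 and exact permutation p up to 0.0429.

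Among the libraries of letter G (8 PS19, 2 WT), the WT values of let-7b-5p were 52127 and 53181 normalized counts, both above all PS19 libraries. The difference there was -1.60 on the log2 scale (limma p = 0.130, exact permutation p = 0.0889). For let-7c-5p the WT values of letter G were 40392 and 106840, and the difference was -1.04 (limma p = 0.314, exact permutation p = 0.267). Neither passed, at 3.62% of ncRNAs called lower there, and the smallest exact permutation p that 8 against 2 libraries allow is 0.0222. The WT libraries of letter F had a mean of 42392 normalized counts of let-7b-5p and those of letter A 39701.

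**Figure D2:**
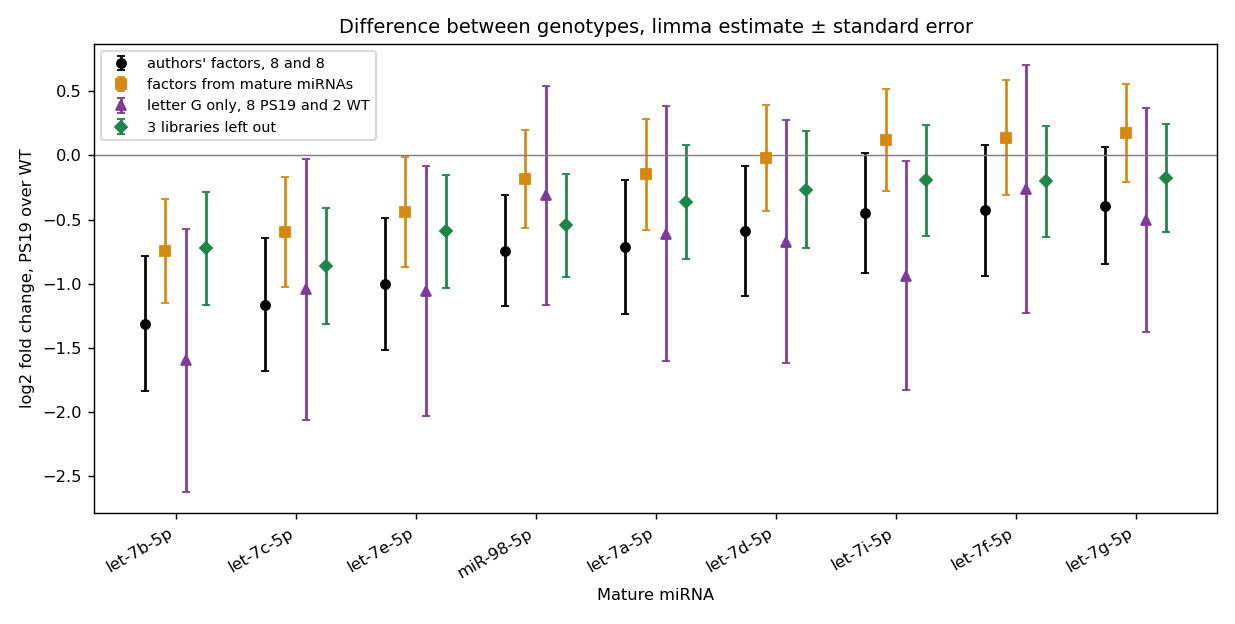
limma log2 fold change (PS19 over WT) of each member, with bars for the standard error, with the authors' size factors, with factors from mature miRNAs, in the libraries of letter G and without 3 libraries apart in their miRNA share. With mature miRNA factors let-7f-5p, let-7g-5p and let-7i-5p lie above 0, and let-7b-5p and let-7c-5p lie below 0 under all 4 settings.

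The rare members let-7e-5p and miR-98-5p missed the limma threshold but had an exact permutation p under 0.05. The WT libraries held 516 to 929 normalized counts of let-7e-5p (median 670), whose hairpin lies beside those of miR-99b and miR-125a, and the PS19 libraries 54.4 to 701 (median 546). The 3 lowest libraries were PS19, and 4 WT libraries lay above the highest PS19 library. Its log2 fold change was -1.003 with a standard error of 0.515 (limma p = 0.0620, exact permutation p = 0.0343). The limma p went under 0.05, down to 0.0397, without PS19 replicate 2 (-1.10), 5 (-1.15), 7 (-1.13) or 8 (-1.15), and the exact permutation p went over it, up to 0.0960, without PS19 replicate 1 (-0.63) or WT replicates 1 (-1.04), 2 (-1.03), 3 (-0.94), 4 (-0.96), 5 (-0.99), 7 (-1.02) or 8 (-0.996).

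For miR-98-5p, which shares the Huwe1 intron with let-7f-2, the WT libraries spanned 109 to 363 normalized counts (median 165) and the PS19 libraries 38.2 to 190 (median 122). PS19 lay below the WT median in 7 libraries, and 2 WT libraries lay above the highest PS19 library. The log2 fold change was -0.74 with a standard error of 0.434 (limma p = 0.0992, exact permutation p = 0.0294). The exact permutation p went over 0.05, up to 0.0648, without PS19 replicate 1 (-0.54), 3 (-0.66) or 4 (-0.69) or WT replicate 3 (-0.71) or 7 (-0.59). By the exact permutation test 4 of the 9 members were lower, beside 1.92% of all ncRNAs and 4.16% of the mature miRNAs. With other settings, tried with this test after the data were seen, the number was 1 with mature miRNA factors (let-7b-5p, beside 0.633% of all ncRNAs), 0 with library totals (beside 2.24%), 3 without the 3 libraries apart in their miRNA share (beside 2.59%) and 0 within letter G (beside 1.72%). The call of let-7e-5p was lost in all 4, with log2 fold changes of -0.44 with mature miRNA factors (exact permutation p = 0.242), -1.27 with totals (p = 0.130), -0.59 without the 3 libraries (p = 0.0991) and -1.06 within letter G (p = 0.311). That of miR-98-5p was lost with mature miRNA factors (-0.18, exact permutation p = 0.442), totals (-1.01, p = 0.123) and letter G (-0.31, p = 0.600), and kept without the 3 libraries (-0.55, p = 0.0478). Adjusted over all ncRNAs, the smallest exact permutation p was 1.0.

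For the other 5 members the genotypes overlapped and neither test passed. From WT to PS19 the range of let-7a-5p went from 7681 to 19938 normalized counts to 1489 to 15208 (log2 fold change -0.71, standard error 0.519, exact permutation p = 0.185). The range of let-7d-5p, from the same cluster on chromosome 13, was 729 to 2158 in WT and 189.6 to 1675 in PS19 (-0.59, standard error 0.507, exact permutation p = 0.262). For let-7f-5p the WT range was 6995 to 29738 and the PS19 range 2094 to 19546 (-0.43, standard error 0.509, exact permutation p = 0.394). Both let-7g-5p and let-7i-5p, which share the base differences G12U and U18C, were as close, with log2 fold changes of -0.39 (standard error 0.455, exact permutation p = 0.304) and -0.45 (standard error 0.467, exact permutation p = 0.258). In let-7a-5p, let-7d-5p and let-7f-5p the PS19 median (11230, 1227 and 11865) was above the WT median (10346, 1141 and 10190), although the mean log2 level was below. Without PS19 replicate 1, the single library whose omission moved them most toward 0, the log2 fold changes were -0.38 for let-7a-5p, -0.29 for let-7d-5p, -0.11 for let-7f-5p, -0.20 for let-7g-5p and -0.26 for let-7i-5p.

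A member's share of the family's reads does not depend on the size factors and shows the make-up of the family. In PS19 the family held less let-7c-5p and more let-7d-5p, let-7f-5p and let-7g-5p than in WT, at an unadjusted exact permutation p under 0.05 for each. Such shares sum to 100% within a library and are not independent of each other. The 95% Wilson interval of a single library was at most 1.60 percentage points wide (let-7c-5p in PS19 replicate 4, 38.6% to 40.2%), and such intervals cover counting error only, since PCR reads are not independent molecules.

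The share of let-7c-5p in the lowest, median and highest library was 31.7%, 38.7% and 44.9% for PS19 and 33.1%, 45.2% and 51.6% for WT. Its means were 38.9% ± 4.17 and 44.4% ± 5.52 (SD, n = 8 each), a difference of -5.51 percentage points (exact permutation p = 0.0426). For let-7b-5p the means were 22.2% ± 7.18 and 27.4% ± 7.16, which did not pass (exact permutation p = 0.170). Together let-7b and let-7c made up 61.1% ± 7.97 of the family in PS19, against 71.9% ± 5.77 in WT, a sum formed after the values were seen and given without a test.

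The share of let-7f-5p, which differs from let-7a by 1 base, was 8.24%, 12.0% and 19.2% in the lowest, median and highest PS19 library and 4.73%, 8.22% and 13.7% in those of WT. The difference in means was 3.72 percentage points (12.4% ± 3.47 for PS19 against 8.703% ± 3.09 for WT, SD, n = 8 each, exact permutation p = 0.0387). For let-7g-5p the means were 5.17% ± 2.73 and 3.19% ± 0.779 (exact permutation p = 0.0404), and its highest share, 11.0%, was that of PS19 replicate 3. For let-7d-5p they were 1.01% ± 0.184 and 0.780% ± 0.181 (exact permutation p = 0.0249). The shares of let-7i-5p (10.7% ± 4.27 and 7.27% ± 2.29, exact permutation p = 0.0657) and let-7a-5p (9.10% ± 1.83 and 7.65% ± 1.84, exact permutation p = 0.138) did not pass. Nor did those of let-7e-5p (0.431% and 0.439%) and miR-98-5p (0.128% and 0.110%), with exact permutation p of 0.903 and 0.280.

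The differences in share of these 4 members kept their direction with 1 library left out, but most of their calls lay near the threshold. With 1 library left out at a time, the exact permutation p of let-7c-5p stayed under 0.05 without PS19 replicates 5, 6 or 7 or WT replicates 2 or 3 and was above it without each of the other 11, with p up to 0.0844 and a difference between -7.13 and -4.48 percentage points. That of let-7f-5p stayed under 0.05 without PS19 replicates 1, 2, 5 or 8 or WT replicates 3, 6 or 7, with a difference between 2.75 and 4.43 points over all 16. That of let-7g-5p stayed under it without PS19 replicates 2, 5, 7 or 8 or WT replicates 1 or 7, and its difference ran from 1.15 points, without PS19 replicate 3, to 2.36. For let-7d-5p the call was lost without PS19 replicate 8 (0.189 points, exact permutation p = 0.0516) and kept in the other 15 of these fits. Members that had missed the threshold passed it in some of them. The share of let-7b-5p passed without PS19 replicate 2 (-7.16 points, exact permutation p = 0.0368) and that of let-7a-5p without WT replicate 3 (1.91 points, exact permutation p = 0.0446). With 1 library left out the difference of let-7b-5p ran up to -3.08 points, and within letter G it was -10.6 (exact permutation p = 0.111). Over all alternatives the exact permutation p of let-7b-5p went up to 0.677. The share of let-7i-5p passed without PS19 replicate 2, 7 or 8 or WT replicate 4 or 7, with differences from 3.76 to 3.92 points and an exact permutation p down to 0.0319. Without the 3 libraries apart in their miRNA share let-7c-5p passed (-7.07 points, exact permutation p = 0.00991), and the calls of let-7d-5p (0.206 points, p = 0.0763), let-7f-5p (2.62 points, p = 0.117) and let-7g-5p (1.60 points, p = 0.178) were lost. Within letter G no member passed, with differences of -0.50 points for let-7c-5p (exact permutation p = 0.889), 5.24 for let-7f-5p (p = 0.111), 1.94 for let-7g-5p (p = 0.378) and 0.227 for let-7d-5p (p = 0.133).

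**Figure D3:**
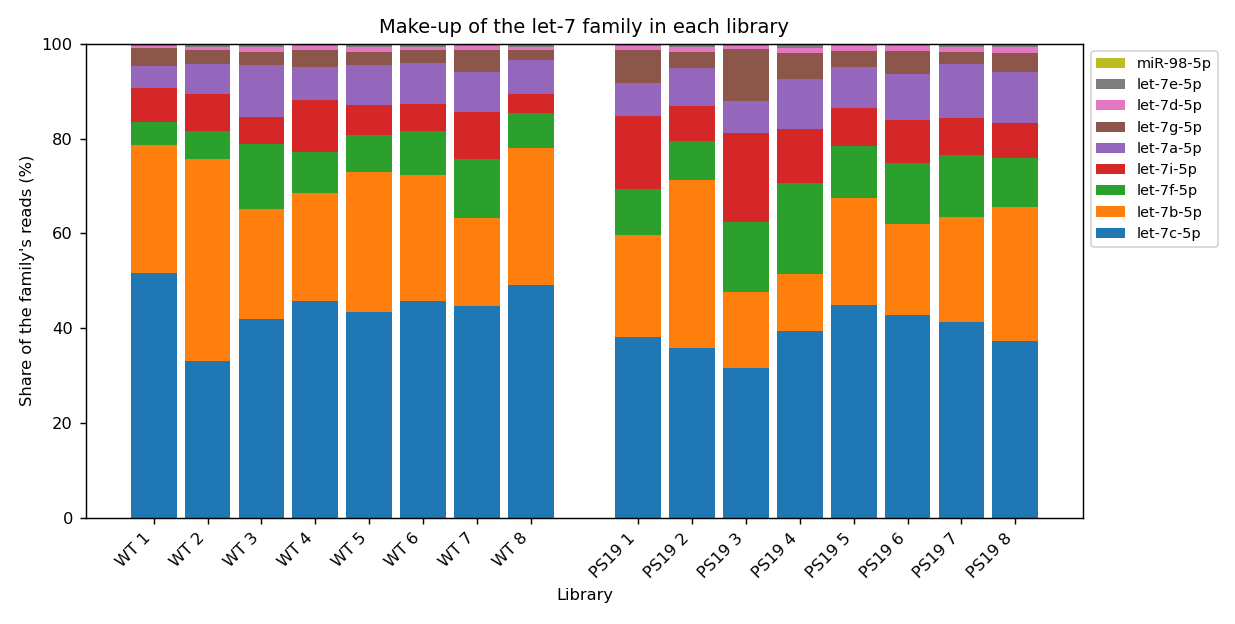
Share of the let-7 family's reads (%) taken by each member in the 8 WT and 8 PS19 libraries, as stacked bars that sum to 100%. The members let-7b-5p and let-7c-5p form the lower 2 segments, which reach 47.6% in PS19 replicate 3, the lowest library, and 78.7% in WT replicate 1, the highest.

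Members differed in how closely they moved together from mouse to mouse. For each of the 36 pairs this was measured as the SD of the log2 ratio of their normalized counts over the 16 libraries, a value in which the library's size factor cancels, with a median of 0.593. let-7a-5p and let-7d-5p kept the steadiest ratio (0.197), and of their hairpins let-7a-1 and let-7d share a cluster while let-7a-2 lies on another chromosome. Next came let-7g-5p and let-7i-5p (0.251), which lie on different chromosomes, and let-7a-5p and let-7f-5p (0.358). let-7b-5p and let-7c-5p had an SD of 0.482. The ratios that varied most were those of let-7e-5p to let-7g-5p (0.957) and let-7b-5p to let-7g-5p (0.938). The 5 pairs with hairpins in a shared cluster had a median of 0.383, against 0.608 for the other 31. Each of these 5 pairs includes let-7a, let-7c or let-7f, which also have a hairpin outside the shared cluster.

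Over the 36 pairs the SD and the number of base differences had a Spearman's rho of 0.465, a description over pairs that share members and libraries. The 4 pairs that differ by 1 base had a median SD of 0.403, the 10 pairs with 2 differences 0.561, the 11 with 3 differences 0.663 and the 9 with 4 differences 0.656. Single pairs with 5 and 6 differences had 0.905 and 0.602, so that the median did not rise beyond 3 differences in every class. let-7a-5p and let-7d-5p differ by 2 bases, as do let-7g-5p and let-7i-5p. Reads passed between near-identical members by the counting would also steady a ratio, and their number was not measured.

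**Figure D4:**
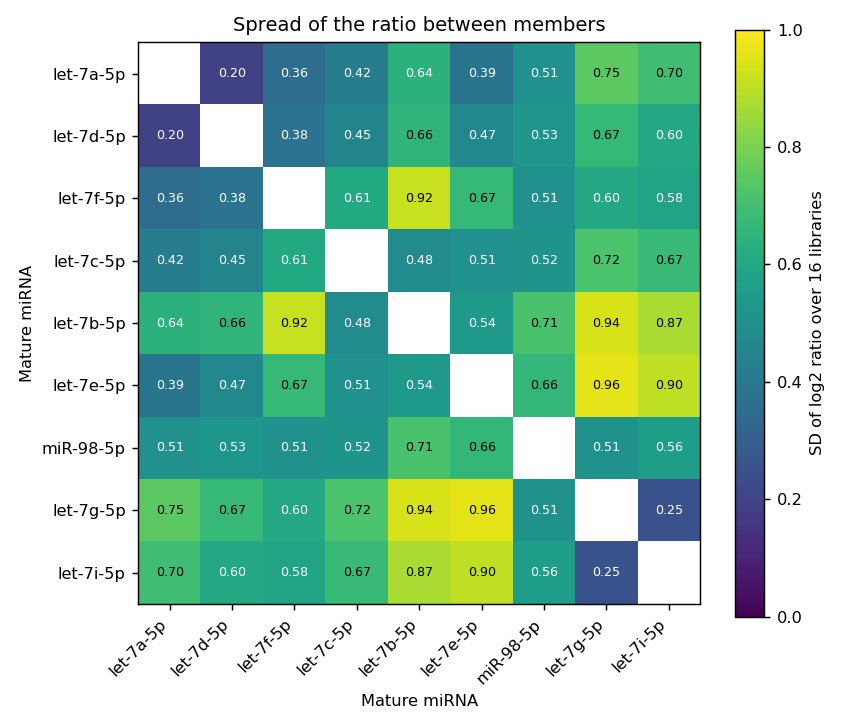
SD over 16 libraries of the log2 ratio between each pair of members, with darker cells for steadier ratios. let-7a-5p with let-7d-5p (0.197) and let-7g-5p with let-7i-5p (0.251) are the darkest cells, and let-7e-5p and let-7b-5p against let-7g-5p the brightest.

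Outside the family, 92 mature miRNAs with at least 10 reads in every library were compared with its summed level in the same way, with a median SD of 0.826. The 5 with the steadiest ratio to the family were miR-30d-5p (0.437), miR-191-5p (0.529), miR-30e-3p (0.535), miR-676-3p (0.538) and miR-30a-3p (0.550). The members are part of the sum, and their SD to it ran from 0.196 for let-7c-5p, which dominates it, to 0.600 for let-7g-5p. miR-30d-5p was thus as steady as let-7b-5p (0.438) and steadier than let-7e-5p (0.458), let-7f-5p (0.525), let-7i-5p (0.547) and let-7g-5p.

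The hairpin entries of the family had few reads. Each of those that belong to a member held between 0.0414% and 1.91% of the reads of its mature 5p member over the 16 libraries. Of the 14 entries without an arm in their name 3 were lower in PS19 at an unadjusted limma p under 0.05 and none higher, and 13 had a negative log2 fold change (median -0.63), beside 2.13% lower and 50.8% negative among all ncRNAs. By the exact permutation test, which called 1.92% of all ncRNAs lower, let-7k passed as well (-0.88, limma p = 0.103, exact permutation p = 0.0460). The let-7b entry had 816 reads in WT and 371 in PS19. Its mean was 81.3 ± 18.6 normalized counts for WT and 39.4 ± 24.8 for PS19 (SD, n = 8 each), and limma put the log2 fold change at -1.33 with a standard error of 0.490 (raw p = 0.0114, exact permutation p = 0.00264). The other 2 limma calls were let-7c-1 (-0.97, limma p = 0.0417, exact permutation p = 0.0162) and let-7c-2 (-0.98, limma p = 0.0466, exact permutation p = 0.0233). These are the hairpins of the same 2 members that passed, and the table does not say whether their reads overlap the mature arm.

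Several let-7 genes are transcribed with members of the miR-99/100 and miR-125 families, which differ from let-7 in sequence and targets. Of the 9 such mature miRNAs listed, all 9 had a negative log2 fold change (median -0.69), and 1 passed with limma and 2 by the exact permutation test. Among all mature miRNAs 73.1% had a negative fold change, 5.51% were lower with limma and 4.16% by the exact permutation test. The 219 mature miRNAs with a mean of at least 10 normalized counts had a median log2 fold change of -0.64, near that of these neighbours. The limma call was miR-125b-2-3p, from the cluster of let-7c-1, with 147 reads in WT and 43 in PS19 (log2 fold change -1.83, limma p = 0.0169, exact permutation p = 0.0395). The exact permutation test also passed miR-125a-5p, from the cluster of let-7e (log2 fold change -0.94, limma p = 0.0661, exact permutation p = 0.0420). The abundant miR-99a-5p of the let-7c-1 cluster, with means of 8290 ± 1787 normalized counts for WT and 6485 ± 5136 for PS19 (SD, n = 8 each), did not pass (log2 fold change -0.86, limma p = 0.116, exact permutation p = 0.117).

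Markers of possible source cells were read beside the let-7 differences, since let-7 itself is made by most cells, and none of the listed markers was at 0 in all libraries. Their calls stand beside 5.51% of all mature miRNAs lower and 0.734% higher with limma, and 2.13% and 2.72% of all ncRNAs. Of 5 red blood cell miRNAs 1 was lower, miR-486a-5p (log2 fold change -1.41, limma p = 0.0410, exact permutation p = 0.0791), and their summed level ran from 1952 to 44879 normalized counts in PS19 and from 17302 to 94866 in WT. The other 4 had log2 fold changes from -0.77 (miR-16-5p) to 0.36 (miR-144-5p). Of 2 liver miRNAs 1 was lower, miR-122-5p (log2 fold change -1.57, limma p = 0.0387, exact permutation p = 0.0805), with sums from 8373 to 211497 in PS19 and from 26450 to 385899 in WT. miR-206-3p, of skeletal muscle, was higher (log2 fold change 1.79, limma p = 0.0361, exact permutation p = 0.0903) and the other 2 muscle miRNAs, miR-1a-3p (-0.02) and miR-133a-3p (1.16), did not pass, with sums from 1733 to 94150 and from 4513 to 64139.

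None of the 4 neuronal miRNAs passed with limma, and their sums ran from 982 to 10024 normalized counts in PS19 and from 2208 to 10423 in WT. The 3 platelet and myeloid miRNAs (23.0 to 218 and 34.1 to 147), the 2 lymphocyte miRNAs (57.3 to 215 and 96.6 to 329) and the 2 endothelial miRNAs (516 to 2262 and 1444 to 3373) did not pass limma either. The most abundant entries of these lists were miR-128-3p, miR-223-3p, miR-150-5p and miR-126a-3p, with log2 fold changes of -0.57, 0.70, -0.19 and -0.75. Entries of a list did not all go the same way. Beside miR-223-3p, miR-142a-3p and miR-142a-5p were at -0.08 and -0.86, and beside miR-150-5p, miR-155-5p was at 0.44. The other 3 neuronal miRNAs and the other endothelial miRNA were also negative (-0.85 to -0.21 and -0.75). By the exact permutation test miR-126a-3p, an endothelial miRNA, was lower in PS19 (exact permutation p = 0.0169, limma p = 0.0849). The part of any of these cell types in the let-7 levels was not tested.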

How the data were processed

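Small RNA from plasma EVs of 8 PS19 and 8 WT mice was sequenced from a single end, with 1 library per mouse. Reads were aligned with STAR 2.5.3a to mm10, as named in the submitters' processing notes, and assigned to ncRNAs with COMPSRA. The authors deposited signal values, which are counts divided by each library's DESeq2 1.42.1 size factor. Deposited columns of the authors' own comparison (mean, log2 fold change, standard error, Wald statistic and p-values) were not used.

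Whole reads were recovered by dividing by the smallest positive value of a library, and 100% of values were whole within 1e-06. Groups came from the genotype label. log2(normalized count + 1) was tested with limma 3.58.1 (lmFit, eBayes with trend) over all 15159 ncRNAs, which leaves fold changes of rare ncRNAs understated. Single values had two-sided exact permutation tests of 8 against 8. Alternatives were DESeq2 1.42.0 and edgeR 4.0.16 (quasi-likelihood) on recovered reads, library totals or mature miRNA factors, a mean of at least 10, a pseudocount of 0.1, a replicate block, 1 ncRNA per identical set, letter G only, and each library left out. The exact tests under other scalings or library sets were added after the data were seen. The limma, edgeR and DESeq2 fits were tested on simulated data. R 4.3.3 and Python 3.11.15 (scipy 1.17.1) were used.

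Named were the 9 members, list entries with a raw limma p under 0.05 or else the most abundant entry, and the 5 miRNAs closest to the family. Some values of further entries (let-7k, miR-125a-5p, miR-99a-5p, the other entries of marker lists, let-7d-3p and the other 3p arms) were chosen after they were seen. The members and lists were chosen with earlier results of these data known. Sequences are from RefSeq (GRCm38.p6, all 9 members matched) and host genes from GENCODE on GRCm38. Cortical libraries were not analysed here.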

Additional observations from a re-analysis of the deposited data

Results flagged for a closer look

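In WT replicate 2, let-7b-5p took 42.7% of the family's reads, farther from the other 7 WT libraries than Dixon's criterion allows (gap over range 0.547, critical value 0.526). This is the library with the highest share of mature miRNA, and the one in which let-7b-5p exceeded let-7c-5p. miR-98-5p had 363 normalized counts in WT replicate 7, against 195 in the next highest WT library (gap over range 0.659). Among the 38 groups of values examined 2 stood out in this way, and chance gives about 1.9.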

How the results depend on the processing

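The number of ncRNAs with an unadjusted p under 0.05 was 735 with limma, 441 with library totals, 230 of 2625 tested (8.76%) with a mean of at least 10, against 4.85% of all, and 2295 with edgeR, and ran from 567 to 846 with 1 library left out. Of the let-7 members, 2 passed in the main comparison, and 0 with mature miRNA factors, with edgeR, with letter G only and without the 3 libraries apart in their miRNA share. With 1 library left out this number ran from 0 to 3. By the exact permutation test 4 members passed, 1 with mature miRNA factors, 0 with totals or letter G only, and 2 to 4 with 1 library left out. let-7b-5p and let-7c-5p passed with totals, DESeq2, the mean filter, the pseudocount of 0.1 and 1 ncRNA per identical set (p between 0.0141 and 0.0422), and over all alternatives their p ran from 0.0118 to 0.130 and from 0.0201 to 0.314. Lower in PS19 were 296 of 15159 ncRNAs with totals, 241 of 15159 with DESeq2 and 59 of 2625 with the mean filter. With the pseudocount 369 of 15159 were lower, and 257 of 11946 with 1 ncRNA per identical set. The median log2 fold change of all ncRNAs was -0.11 with totals and 0.18 with mature miRNA factors, against -0.01. Mature miRNA factors turned let-7f-5p to 0.14, let-7g-5p to 0.17 and let-7i-5p to 0.12, and the cause was not tested. The share difference of let-7e-5p, -0.00822 percentage points, became 0.00722 with letter G only and ran from -0.035 to 0.017 with 1 library left out. Mice that share a replicate number were different animals, and their deviations from the group means correlated at 0.47 for replicate 2 and between -0.18 and 0.10 for the other 7 numbers. With a replicate block 685 ncRNAs passed, and let-7b-5p and let-7c-5p kept their calls. miR-98-5p had as few as 21 reads in a library, which limits its precision.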

Other observations

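let-7d was the member whose 3p arm had the most reads. The 16 libraries held 2129 reads of let-7d-3p, 915 in PS19 and 1214 in WT, so there were 10.5 reads of let-7d-5p for each. For the other 3p arms with more than 3 reads this number ran from 1429 for let-7e to 35422 for let-7a-2. The mean of let-7d-3p was 97.5 ± 53.7 normalized counts for WT and 91.8 ± 75.8 for PS19 (SD, n = 8 each), and limma put the log2 fold change at -0.92 with a standard error of 0.789 (raw p = 0.253, exact permutation p = 0.408). None of the 10 3p entries passed an unadjusted limma p under 0.05. The entries let-7a-1-3p and let-7c-2-3p had identical values, with 115 reads each, and cannot be told apart.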
